A study of Homo sapiens with 6 samples.

Results

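The genes described here are 10 genes of phospholipid cleavage and prostaglandin synthesis, out of 18417 genes on the arrays that carried a gene symbol of their own. They were the lipid hydrolase gene ABHD2, the phospholipase A2 genes PLA2G10, PLA2G7, PLA2G4A and PLA2G15, the cyclooxygenase genes PTGS1 and PTGS2, and the prostaglandin E synthase genes PTGES, PTGES2 and PTGES3. Each was represented by the array's probe set annotated with that symbol alone, and each had 1 such probe set. The set was chosen with the siRNA differences of some members known, since ABHD2 and PLA2G10 were lower and PLA2G7 higher after NRF3 siRNA. For that reason the siRNA values below are a description and no test is given for them.

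Expression was measured on 6 Affymetrix whole-transcript arrays from 6 groups of cultured human cells. HCT116, a colon cancer line, was transfected with NRF3 siRNA or control siRNA. HCT116-p53KO, the p53-deficient form of that line, was transfected with NRF3 siRNA or control siRNA as well, and RNA of these 4 groups was taken after 48 h. H1299, a line from non-small cell lung carcinoma, carried a plasmid for NRF3 or for GFP, and stable cells had been selected with G-418. NRF3 is a transcription factor of the CNC basic leucine zipper family and is encoded by NFE2L3. How p53 was removed, the siRNA sequences, the plasmid's promoter and whether the stable lines were clones or pools are details not given in the sources used here. Each group had 1 array, so no difference could be set against replicate spread, and the small number of arrays limits the precision throughout.

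Values are log2 intensities from RMA, on which a difference of 1 is 2-fold, and a difference is NRF3 siRNA minus control siRNA, NRF3 minus GFP, or HCT116-p53KO minus HCT116. A level under 6 is low on this scale, and the size of a difference is uncertain where an array lay under it. A gene counted as measured in a pair of arrays when at least 1 of the 2 lay at 6 or more. The median of all probe sets was 6.05 with NRF3 and 6.08 with GFP in H1299 and at least 6.95 on each HCT116-family array, so levels are set side by side only inside H1299 or inside the HCT116 family unless stated. NFE2L3 differed by -2.35 after siRNA in HCT116, by -1.55 after siRNA in HCT116-p53KO and by 2.02 with the plasmid in H1299, the directions the labels call for. The marker lists separated the lines only in part. All 6 epithelial markers were at 6 or more on every HCT116-family array, and 2 of the 6, KRT8 and KRT18, were on both H1299 arrays, where EPCAM was at 3.74 with NRF3 and 3.98 with GFP. Of 8 colon markers only the transcription factors CDX1 and CDX2 reached 6 on all HCT116-family arrays, and both reached it in H1299 too, while VIL1, CDH17, LGR5, KRT20 and CEACAM5 lay under 6 on all 6 arrays. Of 6 lung markers 0 reached 6 on both H1299 arrays, and SCGB1A1, FOXA2 and NAPSA reached it on all HCT116-family arrays. Of 5 mesenchymal markers 4 reached 6 on both H1299 arrays, all but SNAI2, and 4 on all HCT116-family arrays, all but CDH2. Of 4 haematopoietic markers PTPRC, CD3E and LYZ lay under 6 on all 6 arrays, and CD14 was between 5.79 and 6.51 in the HCT116 family and under 6 in H1299. Of 5 fibroblast and endothelial markers COL1A1, COL3A1 and PDGFRB reached 6 on all HCT116-family arrays, and COL1A1 on both H1299 arrays too. PECAM1 and CDH5 lay under 6 on all 6 arrays.

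Phospholipases A2 release a fatty acid, often arachidonic acid, from membrane phospholipids. Cyclooxygenases convert arachidonic acid to prostaglandin H2, and terminal synthases turn that into prostaglandin E2, a mediator known for promoting growth and inflammation in colon tumours. Other phospholipases A2 act on oxidised phospholipids or on platelet-activating factor, a lipid messenger, and the alpha/beta hydrolase domain (ABHD) family holds lipases of related fold that cleave glycerolipids. RNA levels on bulk arrays cannot tell fewer cells with a transcript from less of it in each cell.

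The windows upstream of the 4 genes with the largest siRNA differences are shown because these are the members that differed in the same direction in both HCT116 lines by at least 1.5-fold. Each is the 250 bases before the furthest upstream annotated start, from RefSeq on GRCh38.p14, read 5′ to 3′ on the gene's strand. Capitals mark matches on either strand to 4 motifs: TGACNNNGC, the core of the antioxidant response element that CNC factors bind, TGANTCA, the AP-1 site, GGGCGG, the GC box, and TATAAA, the TATA box. The first and the second motif can overlap in 1 site. The ABHD2 window lies at chr15:89040748-89040997 on the plus strand, that of PLA2G10 at chr16:14694309-14694558 on the minus strand, that of PTGS2 at chr1:186680424-186680673 on the minus strand and that of PLA2G7 at chr6:46735722-46735971 on the minus strand.
ABHD2: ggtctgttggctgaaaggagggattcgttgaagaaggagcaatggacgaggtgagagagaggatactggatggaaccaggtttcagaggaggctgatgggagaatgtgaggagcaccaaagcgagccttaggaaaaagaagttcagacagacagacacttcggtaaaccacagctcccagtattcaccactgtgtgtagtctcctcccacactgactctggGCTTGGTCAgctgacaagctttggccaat
PLA2G10: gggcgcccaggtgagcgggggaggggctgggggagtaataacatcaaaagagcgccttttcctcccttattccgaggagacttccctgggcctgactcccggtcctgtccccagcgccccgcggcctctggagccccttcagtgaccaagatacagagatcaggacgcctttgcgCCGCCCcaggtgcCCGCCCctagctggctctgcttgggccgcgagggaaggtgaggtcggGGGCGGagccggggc
PTGS2: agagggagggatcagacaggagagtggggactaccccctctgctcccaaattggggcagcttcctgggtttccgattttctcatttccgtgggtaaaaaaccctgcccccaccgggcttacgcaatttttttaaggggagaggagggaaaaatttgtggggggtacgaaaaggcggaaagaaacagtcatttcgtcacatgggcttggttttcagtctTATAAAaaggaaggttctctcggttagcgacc
PLA2G7: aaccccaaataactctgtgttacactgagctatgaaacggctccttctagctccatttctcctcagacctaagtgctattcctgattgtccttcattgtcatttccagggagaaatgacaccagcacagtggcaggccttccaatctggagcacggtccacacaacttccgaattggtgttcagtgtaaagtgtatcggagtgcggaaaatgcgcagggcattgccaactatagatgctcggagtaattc
ABHD2 had 1 match to TGACNNNGC, which began 29 bases before the start and read GCTTGGTCA on this strand, and none in the window of its second annotated start. PLA2G10 had 3 GC boxes and PTGS2 had 1 TATA box, beginning 32 bases before its start. The PLA2G7 window held none of the 4 motifs. Over the annotated starts of all 10 genes there were 15 windows, and TGACNNNGC was present in 5 of them, belonging to ABHD2, PTGES2, PTGES3 and PTGS1. GGGCGG was present in 10 of the 15 windows, TATAAA in 2 and TGANTCA in 0. Among the 35116 upstream windows of the same length in the RefSeq table, TGACNNNGC was present in 10.9%, GGGCGG in 42.6%, TATAAA in 10.7% and TGANTCA in 6.57%. A match describes the letters and is not evidence of binding.

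After NRF3 siRNA, 4 of the 10 genes differed by at least 1.5-fold in each HCT116 line, the same 4 in the same directions. ABHD2 and PLA2G10 were lower, and PLA2G7 and PTGS2 were higher. Among 13566 genes measured in both lines, 1.68% were at least 1.5-fold lower in both, as 2 of the 9 members so measured were, and 1.18% were higher in both, as 2 members were. The remaining 6 genes differed by less than 1.5-fold in each line.

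ABHD2 is a serine hydrolase of the ABHD family that cleaves monoacylglycerols, including the endocannabinoid 2-arachidonoylglycerol in human sperm. Its level was 7.01 with NRF3 siRNA and 9.06 with control siRNA in HCT116, or 4.14-fold lower with NRF3 siRNA. The HCT116-p53KO level was 7.36 with NRF3 siRNA and 8.96 with control siRNA, which is 3.03-fold lower. Both NRF3 siRNA arrays were therefore below both control arrays, which describes the values that chose the gene. In H1299 the level was 8.69 with NRF3 and 8.83 with GFP, a difference of -0.14, so the gene was not higher in the cells with added NRF3. Among measured genes ABHD2 ranked 7th from the lowest difference in each HCT116 line, by the same differences that chose it. All 6 of its values were above 6, which makes it the best measured of the 4. The RefSeq table places 5 other loci within its span, among them the long noncoding RNA CARMAL, and none of these was among the genes compared here.

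PLA2G10, the secreted group X phospholipase A2, releases arachidonic acid from phosphatidylcholine at the outer cell surface. Its level was 5.34 with NRF3 siRNA and 6.44 with control siRNA in HCT116, a difference of -1.10. HCT116-p53KO had 4.58 with NRF3 siRNA and 6.61 with control siRNA, a difference of -2.03. The 2 control arrays lay just above 6 and the 2 NRF3 siRNA arrays under it, so the direction was shared while the sizes are uncertain. For the same reason no rank is given for it. The differences of the 2 lines lay 0.93 apart, a gap that rests on the 2 values under 6. In H1299 it lay under 6 on both arrays, at 3.48 with NRF3 and 4.04 with GFP. The RefSeq gene table also lists 8 PLA2G10 pseudogenes, and whether the probe set also detects them was not tested.

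PLA2G7 encodes lipoprotein-associated phospholipase A2, the plasma platelet-activating factor acetylhydrolase, which hydrolyses that messenger and oxidised phospholipids. In HCT116 its level was 9.09 with NRF3 siRNA and 7.83 with control siRNA, which is 2.39-fold higher. The HCT116-p53KO level was 7.44 with NRF3 siRNA and 6.66 with control siRNA, which is 1.72-fold higher. The level with NRF3 siRNA in HCT116-p53KO was thus still below that with control siRNA in HCT116. PLA2G7 ranked 8th from the highest difference in HCT116 and 173rd in HCT116-p53KO, by the same differences that chose it. In H1299 both arrays lay under 6, at 4.05 with NRF3 and 5.56 with GFP, a difference of -1.51 whose size is uncertain. TDRD6, which overlaps PLA2G7 in the RefSeq table, lay under 6 on all 6 arrays and differed by 0.04 in HCT116 and by less in HCT116-p53KO.

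PTGS2, the inducible cyclooxygenase COX-2, is the enzyme whose induction is typical of inflammation and of many colorectal tumours. Its level was 6.82 with NRF3 siRNA and 6.13 with control siRNA in HCT116, or 1.61-fold higher. HCT116-p53KO had 6.96 with NRF3 siRNA and 6.19 with control siRNA, which is 1.71-fold higher. The 2 control arrays differed by 0.06 and the 2 NRF3 siRNA arrays by 0.15, so the lines were close to each other under each siRNA. It ranked 220th from the highest difference in HCT116 and 184th in HCT116-p53KO. In H1299 it was under 6 on both arrays, at 4.71 with NRF3 and 5.22 with GFP.

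**Figure D1:**
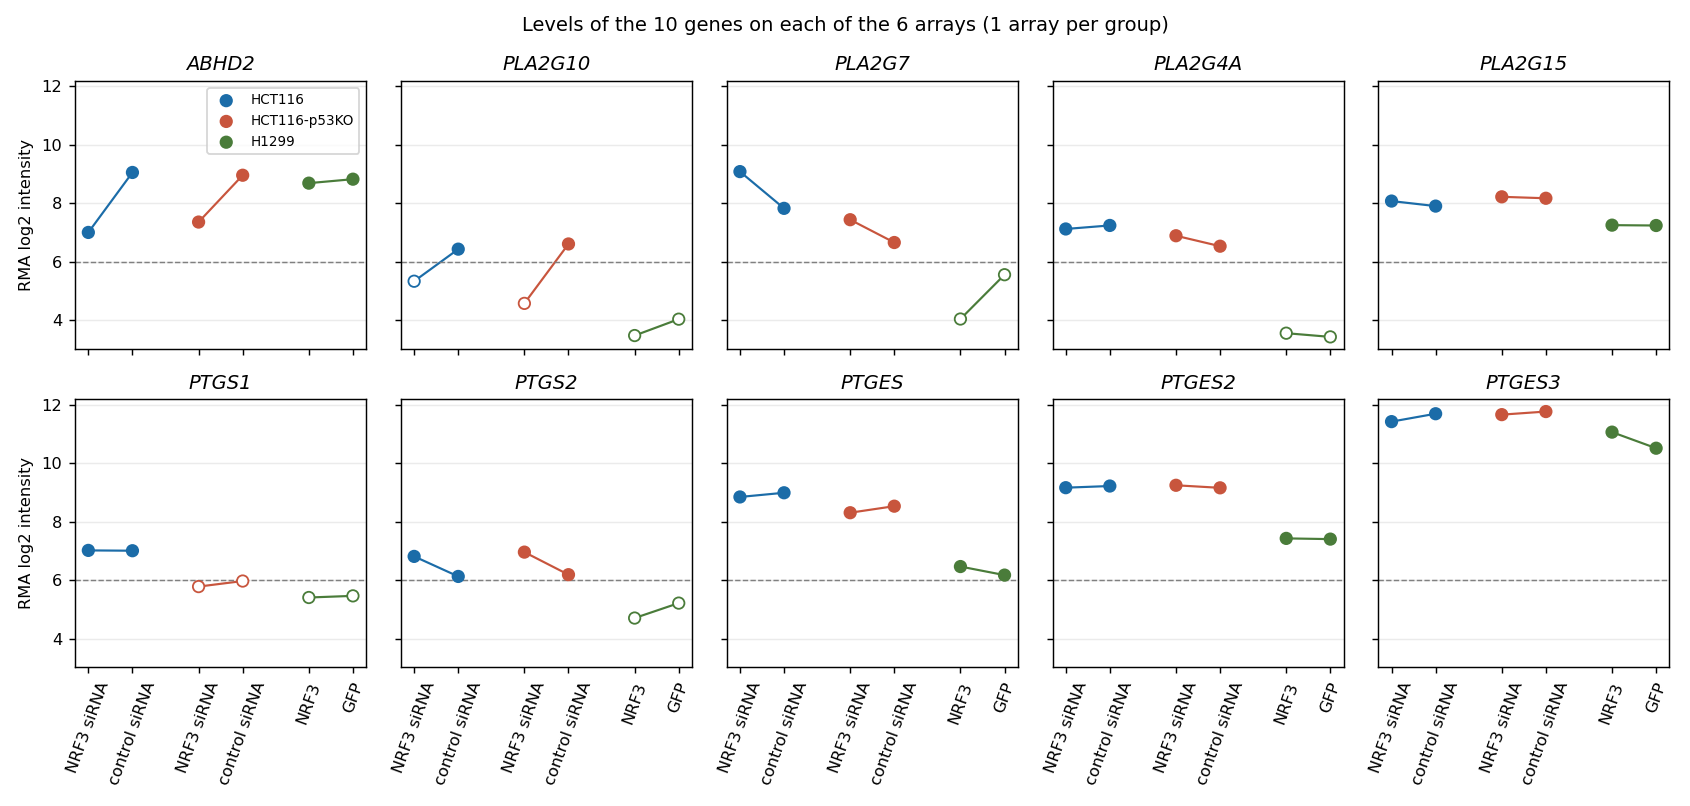
RMA log2 intensity (vertical axis) of each of the 10 genes on the 6 arrays (horizontal axis), 1 point per array, with a line joining the 2 arrays of a cell line. Open points lie under 6 (dashed line). ABHD2 and PLA2G10 are lower and PLA2G7 and PTGS2 higher on the NRF3 siRNA arrays of both HCT116 lines.

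PTGS1, the constitutive cyclooxygenase COX-1, was at 7.02 with NRF3 siRNA and 7.01 with control siRNA in HCT116. Both HCT116-p53KO arrays were under 6 for it, at 5.78 with NRF3 siRNA and 5.97 with control siRNA. In H1299 it was under 6 as well, at 5.41 with NRF3 and 5.47 with GFP. The siRNA difference was therefore 0.01 in HCT116, beside the 0.69 of PTGS2 in that line.

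PLA2G4A encodes cytosolic phospholipase A2 alpha, the calcium-activated enzyme selective for arachidonic acid. It was at 7.13 with NRF3 siRNA and 7.25 with control siRNA in HCT116. HCT116-p53KO had 6.89 with NRF3 siRNA and 6.54 with control siRNA. The differences, -0.12 and 0.36, had opposite signs in the 2 lines. In H1299 it was at 3.56 with NRF3 and 3.44 with GFP, under 6 on both arrays.

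PLA2G15, a phospholipase A2 of lysosomes, was at 8.08 with NRF3 siRNA and 7.91 with control siRNA in HCT116. It was at 8.23 with NRF3 siRNA and 8.18 with control siRNA in HCT116-p53KO. In H1299 it was at 7.26 with NRF3 and 7.24 with GFP. Its 3 differences lay between 0.01 and 0.17.

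The prostaglandin E synthases differed little after siRNA. PTGES, the inducible microsomal synthase that works with COX-2, was at 8.85 with NRF3 siRNA and 8.99 with control siRNA in HCT116, and at 8.31 with NRF3 siRNA and 8.53 with control siRNA in HCT116-p53KO. PTGES2, a membrane-associated synthase, was at 9.17 with NRF3 siRNA and 9.22 with control siRNA in HCT116, and at 9.25 with NRF3 siRNA and 9.16 with control siRNA in HCT116-p53KO. PTGES3, which is also the HSP90 co-chaperone p23, was at 11.4 with NRF3 siRNA and 11.7 with control siRNA in HCT116, and at 11.7 with NRF3 siRNA and 11.8 with control siRNA in HCT116-p53KO. Both PTGES and PTGES3 were slightly lower in each line, by at most 0.27, whereas PTGES2 differed by -0.06 in HCT116 and 0.09 in HCT116-p53KO. The RefSeq table lists 5 PTGES3 pseudogenes, and whether its probe set also detects them was not tested.

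Counted by size in HCT116, 2 of 10 members were at least 1.5-fold higher, where 2.71% of 14034 measured genes were, and 2 were at least 1.5-fold lower, where 6.02% were. For HCT116-p53KO, where PTGS1 was not measured, 2 of 9 were higher and 2 were lower at that fold, with 3.63% and 2.38% of 13680 measured genes. At 2-fold, 1 member was higher and 2 were lower in HCT116 (0.221% and 1.03% of genes), and 0 were higher and 2 were lower in HCT116-p53KO (0.278% and 0.431%). These siRNA contrasts chose 3 of the members, so nothing is read from the shares. The median difference of the members was -0.09 in HCT116 and 0.05 in HCT116-p53KO, against 0.01 and 0.00 over all measured genes, since the members moved in both directions.

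**Figure D2:**
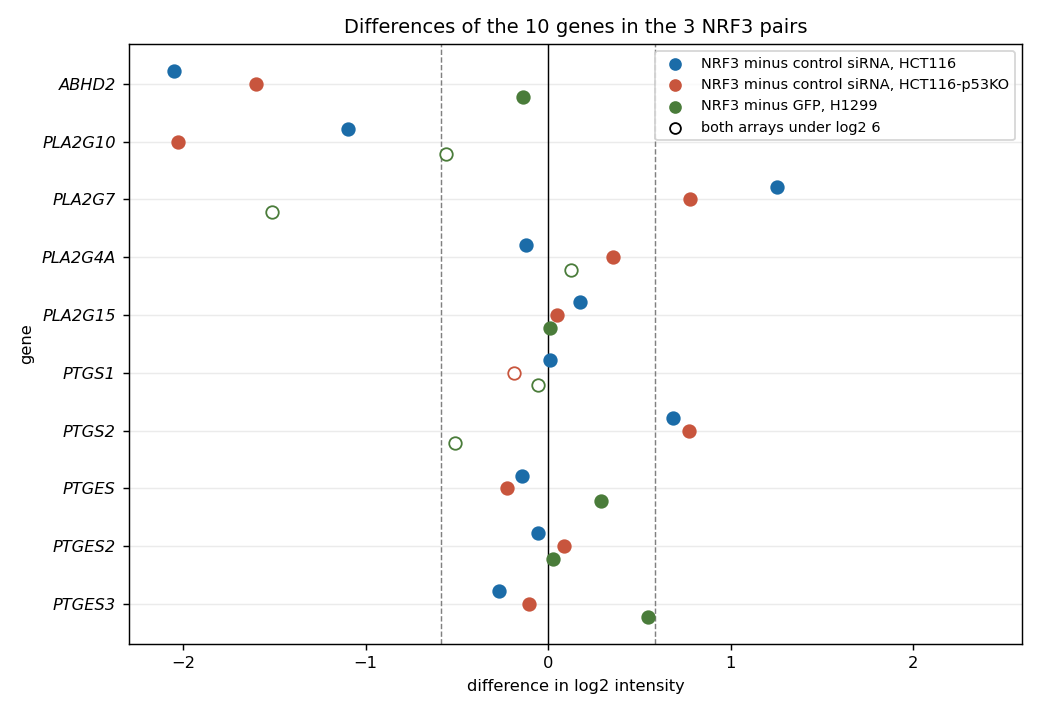
Difference in log2 intensity (horizontal axis) of each gene (vertical axis) in the 3 NRF3 pairs, with dashed lines at 1.5-fold and open points where both arrays lay under 6. ABHD2, PLA2G10, PLA2G7 and PTGS2 lie beyond the dashed lines in both HCT116 lines, and no filled H1299 point does.

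The 2 siRNA comparisons share no arrays. Setting them side by side, the gap between the lines was -0.45 for ABHD2, 0.48 for PLA2G7, -0.48 for PLA2G4A and -0.09 for PTGS2, with a median absolute gap of 0.20 over 13566 genes measured in both. ABHD2 and PLA2G7 thus had their larger differences in HCT116, while PLA2G10 and PTGS2 had theirs in HCT116-p53KO. The gap for PLA2G10 was 0.93, the widest of the members, and it rests on values under 6. NFE2L3 itself was 0.80 further down in HCT116, so these genes did not all have their larger difference in that line. No test of these gaps could be made, since each group had 1 array.

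**Figure D3:**
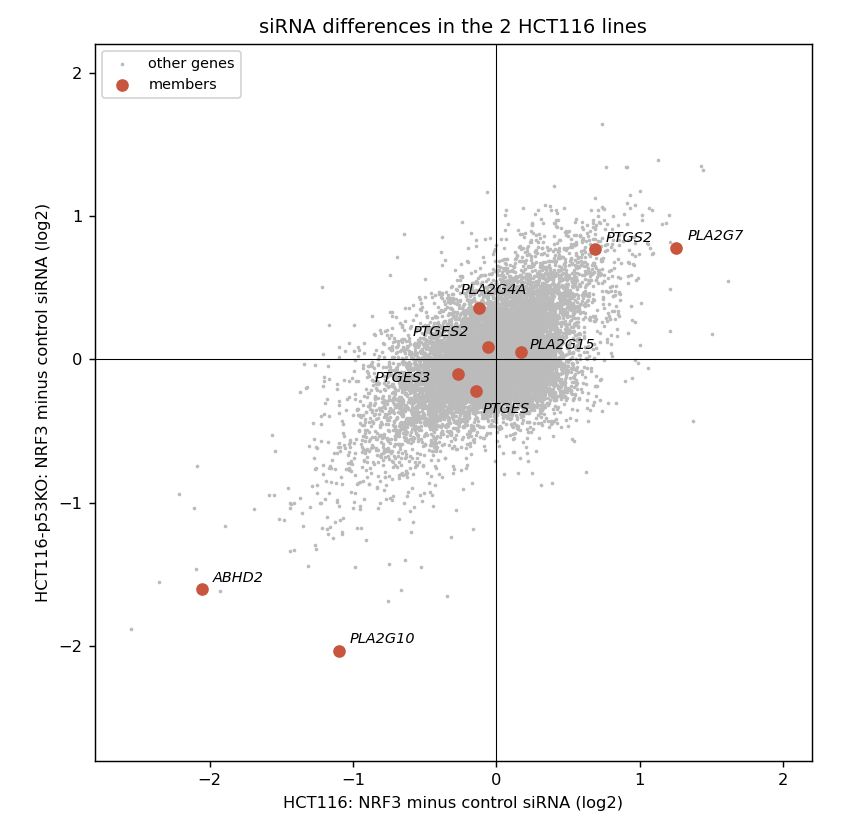
siRNA difference (log2) in HCT116 (horizontal axis) against that in HCT116-p53KO (vertical axis) for 13566 genes measured in both lines (grey) and the 9 members among them (red). ABHD2 (-2.05, -1.60) and PLA2G10 (-1.10, -2.03) sit at the lower left edge of the cloud, PLA2G7 (1.26, 0.78) and PTGS2 (0.69, 0.77) at the upper right.

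Stable NRF3 expression in H1299 asked whether the same genes differed when NRF3 was raised, a contrast the choice of members did not use. Of the 10 genes, 5 were measured in this line: ABHD2, PLA2G15, PTGES, PTGES2 and PTGES3. Of these, 0 were at least 1.5-fold higher, where 4.82% of 11304 measured genes were, and 0 were at least 1.5-fold lower, where 4.20% were. The largest difference was in PTGES3, at 11.1 with NRF3 and 10.5 with GFP, or 1.46-fold higher. PTGES followed at 6.47 with NRF3 and 6.18 with GFP, or 1.22-fold higher, while PTGES2 was at 7.43 with NRF3 and 7.41 with GFP. PTGES and PTGES3 were thus slightly lower after siRNA and slightly higher with the plasmid, all below 1.5-fold. After siRNA, 63.3% of measured genes in HCT116 and 38.1% in HCT116-p53KO differed at least as much as PTGES. For PTGES3 these shares were 38.4% and 67.2%. In H1299 the shares were 33.4% for PTGES and 10.6% for PTGES3. ABHD2, at -0.14, was the 1 measured member that was lower. The median difference of the 5 was 0.02, against 0.00 over all measured genes.

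The arrays of H1299 and the HCT116 family had different overall distributions, so their levels were also compared after quantile normalization was repeated over the 6 arrays. On that scale H1299 with GFP minus HCT116 with control siRNA was -3.20 for PLA2G4A, -1.90 for PTGES, -1.68 for PLA2G10, -1.38 for PLA2G7, -0.88 for PTGES2 and -0.67 for PTGS1. PTGES3 was at -0.29, PTGS2 at -0.06, PLA2G15 at 0.28 and ABHD2 at 0.74. The direction depended on the scale for ABHD2 and PLA2G15, which were at -0.23 and -0.66 on the deposited values. All other members were lower in H1299 with GFP than in HCT116 with control siRNA on both scales, PLA2G4A most. Among them PLA2G4A, PLA2G10, PLA2G7, PTGS1 and PTGS2 lay under 6 on both deposited H1299 arrays, so their sizes are uncertain. Set against HCT116-p53KO with control siRNA on the repeated scale, PTGS1 was higher in H1299 with GFP, at 6.03 against 5.68. The rest of these members stayed lower, PLA2G7 at 6.14 against 6.36 and PTGS2 at 5.78 against 5.90.

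Against HCT116, the HCT116-p53KO line had lower PLA2G7 and PTGS1 under each siRNA. These line comparisons use the same 4 arrays as the siRNA comparisons, so they are not separate evidence, and only their values are given. With NRF3 siRNA, PLA2G7 was 3.13-fold lower in HCT116-p53KO, and with control siRNA it was 2.25-fold lower. PTGS1 was 2.36-fold lower in HCT116-p53KO with NRF3 siRNA and 2.05-fold lower with control siRNA, with the HCT116-p53KO array under 6 each time. PTGES was also lower under each siRNA, by 1.45-fold with NRF3 siRNA and 1.37-fold with control siRNA. PLA2G4A differed by -0.23 with NRF3 siRNA and by -0.71 with control siRNA, so it passed 1.5-fold with control siRNA alone. ABHD2 was at 0.35 with NRF3 siRNA and -0.09 with control siRNA, PTGS2 at 0.15 and 0.06, PLA2G15 at 0.15 and 0.27, PTGES2 at 0.08 and -0.06, and PTGES3 at 0.24 and 0.07 in the same order. PLA2G10 was at 0.18 with control siRNA and was not measured with NRF3 siRNA, where both arrays lay under 6.

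With NRF3 siRNA, 2 of 9 measured members were at least 1.5-fold lower in HCT116-p53KO, where 4.75% of 14007 genes were, and 0 were higher, where 5.60% were. With control siRNA, 3 of 10 were lower, where 3.45% of 13827 genes were, and 0 were higher, where 0.868% were. PLA2G7 and PTGS1 were lower in both comparisons, 2 of 9 members measured in both, where 2.22% of 13686 genes were. Across the 4 HCT116-family arrays PLA2G7 had the widest range of any member, 2.42, and PTGES2 the narrowest, 0.09.

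**Figure D4:**
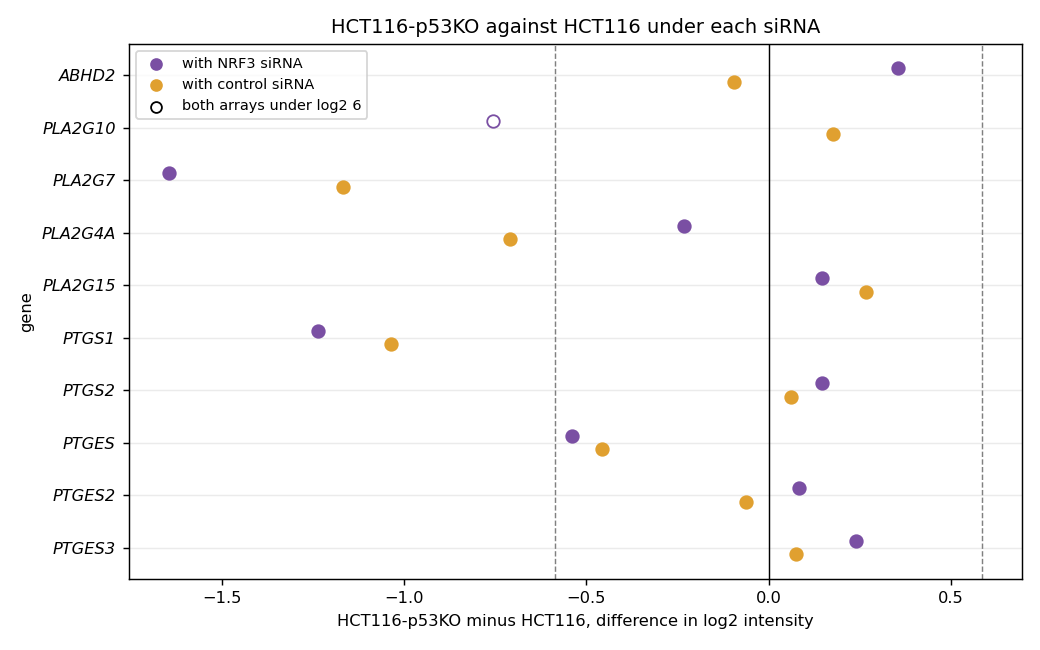
HCT116-p53KO minus HCT116 difference in log2 intensity (horizontal axis) of each gene (vertical axis), with NRF3 siRNA in purple and control siRNA in orange, dashed lines at 1.5-fold and open points where both arrays lay under 6. PLA2G7 (-1.64 and -1.17) and PTGS1 (-1.24 and -1.04) lie below the lower dashed line under each siRNA.

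Genes of the surrounding pathways were examined in 9 lists holding 97 genes present on the arrays. Of 78 measured in HCT116, 2 were at least 1.5-fold higher and 5 lower after NRF3 siRNA. In HCT116-p53KO 2 of 78 were higher and 3 lower, and in H1299 4 of 53 were higher and 2 lower with NRF3. These are 8.97%, 6.41% and 11.3% of the measured list genes. Of all measured genes, 2.71% were higher and 6.02% lower in HCT116, 3.63% and 2.38% in HCT116-p53KO, and 4.82% and 4.20% in H1299, so the lists lay near the background.

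Other secreted phospholipases A2 were all inside 1.5-fold in the 3 NRF3 pairs. Of 7 measured after siRNA, 6 were higher in HCT116 with a median of 0.26, and 2 were higher in HCT116-p53KO with a median of -0.08. PLA2G2F, the group IIF enzyme, had the largest of these values, 0.49 in HCT116. Levels of the 7 with control siRNA in HCT116 ran from 6.19 to 7.55, and no background of genes at such levels was taken. PLA2G10 was chosen by its siRNA differences, so it is not set against these 7. The list of other intracellular phospholipases A2 also held related genes, such as PLAA, the phospholipase A2-activating protein. Among its 8 measured genes the median was 0.02 in HCT116 and -0.09 in HCT116-p53KO. PNPLA8, a calcium-independent enzyme of mitochondria and peroxisomes, was at 6.88 with NRF3 siRNA and 7.56 with control siRNA in HCT116, or 1.60-fold lower, and the other 7 were inside 1.5-fold.

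Genes of platelet-activating factor metabolism other than PLA2G7 had a median of 0.04 after siRNA in HCT116 and 0.07 in HCT116-p53KO, and of 0.03 with NRF3 in H1299. LPCAT2, the acyltransferase that makes platelet-activating factor, was at 8.83 with NRF3 siRNA and 10.1 with control siRNA in HCT116, or 2.41-fold lower. HCT116-p53KO had 9.22 with NRF3 siRNA and 9.77 with control siRNA, or 1.47-fold lower. PTAFR, the receptor for this messenger, differed by -0.18 in HCT116 and -0.61 in HCT116-p53KO. LPCAT1, a related acyltransferase singled out after its values were seen, went the other way, at 0.36 in HCT116 and 0.58 in HCT116-p53KO, so the genes of this list had no common direction. PAFAH2, an intracellular acetylhydrolase, was at 6.97 with NRF3 and 7.85 with GFP in H1299, or 1.85-fold lower.

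Among 18 other ABHD hydrolases measured after siRNA, the medians were -0.08 in HCT116 and -0.06 in HCT116-p53KO. ABHD2 was chosen by its siRNA differences, so it is not ranked against them. ABHD14B was higher in both lines, at 8.81 with NRF3 siRNA and 8.06 with control siRNA in HCT116 and at 9.12 with NRF3 siRNA and 8.32 with control siRNA in HCT116-p53KO. ABHD13 was at -0.74 and ABHD3, a phospholipase acting on medium-chain phospholipids, at -0.66 in HCT116. In HCT116-p53KO ABHD13 was at -0.58 and ABHD3 at 0.12, so ABHD3 had opposite signs in the lines. In H1299 ABHD3 was 1.75-fold higher with NRF3, and ABHD5, the co-activator of adipose triglyceride lipase, was 1.72-fold higher, in a list whose median was -0.19 over 17 genes.

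Downstream of the cyclooxygenases, the 3 other prostanoid synthases measured after siRNA lay between -0.12 and 0.18. PRXL2B, a prostaglandin F synthase, had the largest value of that list, -0.44 in H1299. In the list of prostanoid receptors, which also held the receptor regulator PTGFRN, 4 of 6 genes were lower in HCT116 with a median of -0.04. In HCT116-p53KO 6 of 7 were lower with a median of -0.13, and in H1299 4 of 4 with a median of -0.21. Over all measured genes these medians were 0.01, 0.00 and 0.00. PTGER2, the EP2 receptor for prostaglandin E2, was at 5.88 with NRF3 siRNA and 6.58 with control siRNA in HCT116-p53KO, or 1.63-fold lower, and was under 6 on both HCT116 arrays. Genes of prostaglandin breakdown and transport were all inside 1.5-fold after siRNA, with medians of 0.18 and 0.13. ABCC4, a transporter that exports prostaglandins, was at 9.42 with NRF3 and 8.75 with GFP in H1299, or 1.59-fold higher.

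The lipoxygenase and leukotriene list had 7 of 8 genes higher in HCT116 with a median of 0.32. In HCT116-p53KO 4 of 8 were higher with a median of 0.00. The medians over all measured genes were 0.01 and 0.00, and no background of genes at like levels was taken. ALOX12B, a lipoxygenase of the skin barrier, was at 7.42 with NRF3 siRNA and 6.62 with control siRNA in HCT116, or 1.74-fold higher. In the list of arachidonate and lysophospholipid handling, MBOAT1, a lysophospholipid acyltransferase, was 2.24-fold lower in HCT116 and 1.91-fold lower in HCT116-p53KO after siRNA and 1.41-fold higher with NRF3 in H1299. NAPEPLD, a phospholipase D that makes N-acylethanolamines, was 1.66-fold higher in HCT116-p53KO. MGLL, the main hydrolase of 2-arachidonoylglycerol, was at 6.71 with NRF3 and 5.27 with GFP in H1299, a difference of 1.44 with the GFP array under 6. LPCAT3, which puts arachidonate into phospholipids, was at 9.88 with NRF3 and 10.9 with GFP in H1299.

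**Figure D5:**
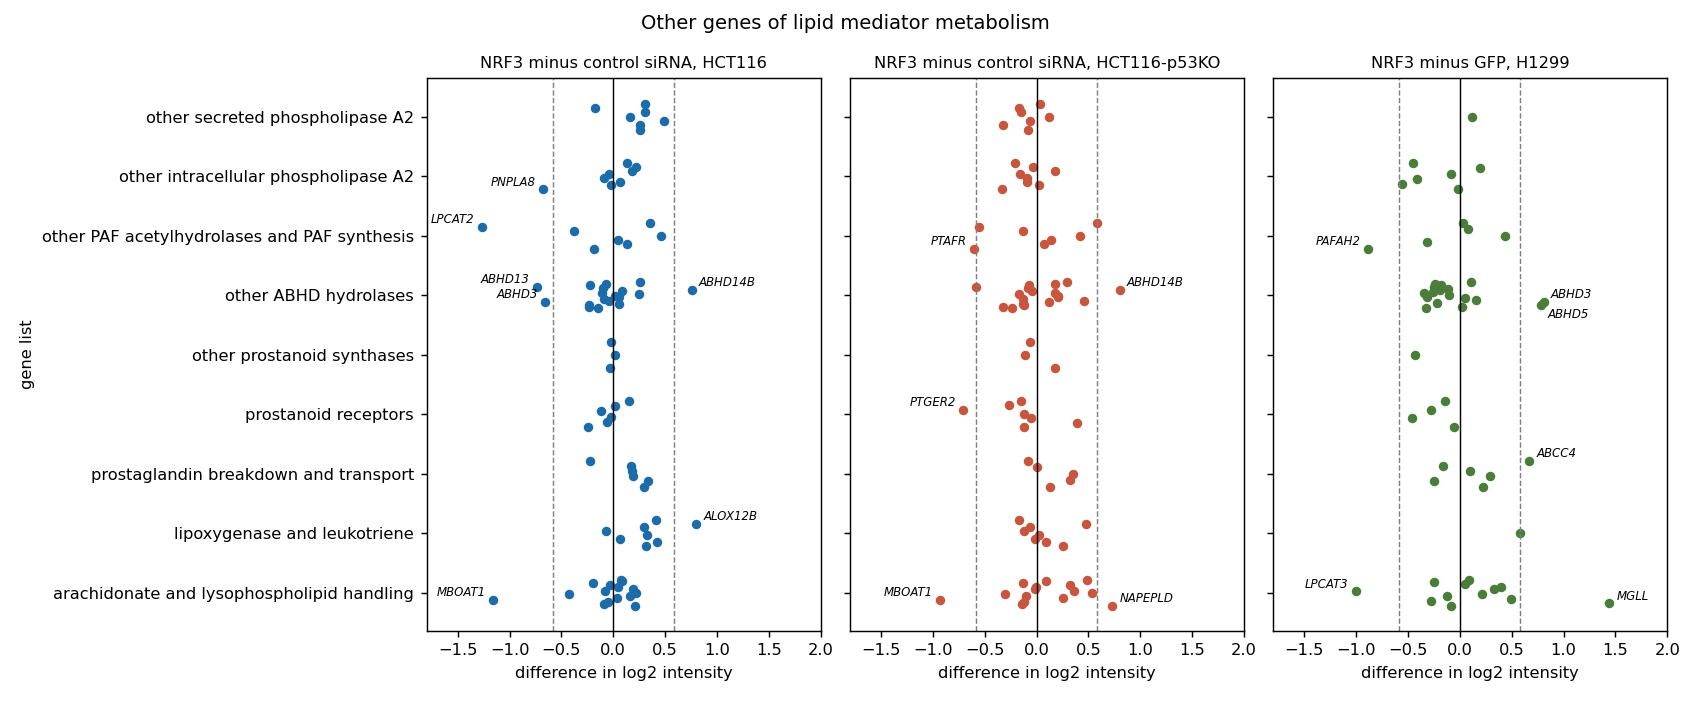
Difference in log2 intensity (horizontal axis) of the measured genes of 9 pathway lists (vertical axis) in the 3 NRF3 pairs, 1 point per gene, with dashed lines at 1.5-fold and genes past it named. Most points lie inside the dashed lines, with LPCAT2 and MBOAT1 lowest in HCT116 and MGLL highest in H1299.

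The genes most like each of the 3 members named by the siRNA values were those with the smallest Euclidean distance in the 3 NRF3 differences, over 13565 genes measured in both siRNA pairs. Closest to ABHD2 were LGMN, at a distance of 0.24, SKIL at 0.28, TOMM20 at 0.50, MIR31HG at 0.65 and ADAM32 at 0.66. Of these, ADAM32 lay under 6 on 4 arrays and was not measured in H1299, while SKIL lay under 6 on 2 and MIR31HG on 1. LGMN, the lysosomal protease legumain, differed by -2.10 and -1.46 after siRNA in HCT116 and HCT116-p53KO and by 0.05 in H1299. For PLA2G10 the closest were ITGA2 at 0.71, MIR31 at 0.72, MEST at 0.78, ANKRD36BP1 at 0.83 and APOBEC3B at 0.85. These distances are uncertain, since PLA2G10 lay under 6 on both NRF3 siRNA arrays and both H1299 arrays. ANKRD36BP1 and APOBEC3B were themselves not measured in H1299, and MEST lay under 6 on 1 array. For PLA2G7, whose H1299 arrays both lay under 6, the closest were BFSP1 at 0.42, C1RL at 0.50, SLC16A9 at 0.52, VCAN at 0.80 and ABCC3 at 0.83. C1RL and SLC16A9 each lay under 6 on 1 array. BFSP1, a lens beaded filament protein, differed by 0.92 and 0.68 after siRNA in HCT116 and HCT116-p53KO and by -1.30 in H1299.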

How the data were processed

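Expression was measured on 6 arrays, 1 per group, from 100 ng of total RNA. The authors deposited log2 intensities for 33297 probe sets. The submitters' processing notes name RMA and Affymetrix Expression Console; their versions, and which arrays were normalized together, are not stated there. Sorted values differed on average by at most 0.0703 among the HCT116-family arrays and by 0.779 to 0.805 between these and the H1299 arrays. At most 2.36% of probe sets held identical values on any pair of arrays.

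The array's annotation named the probe sets: 19460 had 1 gene symbol, 1754 had several and 12083 were unnamed. Entrez numbers of 19429 matched RefSeq (GRCh38.p14), changing 0 symbols. For the 769 genes with several probe sets the highest mean was taken. Differences of log2 values were counted at 1.5-fold and 2-fold for genes reaching 6 on 1 or both arrays of a pair, in Python 3.11.15 with pandas 2.3.3. With 1 array per group no p-values are given. The counting was tested on simulated data with known changes.

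The members and lists were chosen with earlier results of these data known. Named genes were the members, NFE2L3, every list gene past 1.5-fold in an NRF3 pair or otherwise the largest of a list, the 5 nearest genes of ABHD2, PLA2G10 and PLA2G7, and the cell type markers. Alternatives were averaging each gene's probe sets, quantile normalization repeated over 6 arrays, loess correction (span 0.4, statsmodels 0.14.6), no filter, a filter of 7 and 2-fold.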

Additional observations from a re-analysis of the deposited data

Results flagged for a closer look

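Among members measured in both HCT116 lines, 2 had siRNA differences of opposite sign in the lines, and with 1 array per group this was not tested. PLA2G4A differed by -0.12 in HCT116 and by 0.36 in HCT116-p53KO, so that the HCT116 difference minus that in HCT116-p53KO was -0.48, and 12.4% of 13566 genes were at least as far apart. PTGES2 differed by -0.06 in HCT116 and by 0.09 in HCT116-p53KO, a gap of -0.14, and 62.8% of those genes were at least as far apart.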

How the results depend on the processing

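No analysis paired by replicate number was made, since the labels give none and each group had 1 array. The NRF3 and control siRNA arrays are matched by line. No model of the 4 arrays with line as a block was fitted, because that contrast chose 3 of the members. The 30 member differences of the 3 NRF3 pairs were compared under quantile normalization repeated over the 6 arrays and under loess correction. Each moved by less than the spread of all genes in its pair, and none past 1.5-fold changed sign. After loess correction PTGS2 in HCT116 was at 0.589, just past the 1.5-fold cut of 0.585. Averaging probe sets could not move them, since each member had 1 probe set. The number of members at least 1.5-fold lower in H1299 was 0, and it was 1 with quantile normalization repeated or with no expression filter, in each case PLA2G7, whose deposited values were under 6 on both H1299 arrays. With a filter of 7, which PLA2G10 and PTGS2 did not reach on any array, the number was 1 higher and 1 lower in HCT116 and 1 higher and 1 lower in HCT116-p53KO, against 2 each. At 2-fold, 1 member was higher in HCT116 and 0 in HCT116-p53KO, against 2 in each at 1.5-fold. The low signal of PLA2G10, PTGS1 and PTGS2 limits the sizes given for them.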
